A study of Mus musculus with 4 samples.

Results

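Interferon-stimulated effector genes encode the proteins by which a cell acts against a virus once interferon has been sensed. The 48 genes described here were taken by symbol from the table of gene counts, out of 54532 genes in all. Of these 48, 40 reached a mean of at least 1 CPM (each library's counts scaled to the same total, with TMM factors) over the 4 libraries and were tested, as part of the 13233 genes of the whole table that did so. They fall into 8 groups by role, namely ISG15 conjugation, RNA binding by IFIT proteins and helicases, nucleotide and nucleic acid enzymes, Mx GTPases, membrane and surface proteins, PARP proteins with DTX3L, TRIM and nuclear body proteins, and other induced genes.

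Type I and type III interferons bind receptors that act through JAK kinases on STAT proteins. With IRF9 these form the complex ISGF3, which binds the interferon-stimulated response element (ISRE) in front of the genes it switches on. Many of the products trap, modify or destroy viral RNA or proteins, and some, such as ISG15 and its protease USP18, also feed back on the response.

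mRNA was sequenced in C3H10T1/2, an established line of mesenchymal stem cells (MSCs) from C3H mouse embryos. All cells were transfected for 48 h with an siRNA. The control library came from cells given a control siRNA, and the siDNMT1 library from cells given siRNA against DNMT1, the maintenance DNA methyltransferase. Neither was induced. The OB library (control siRNA) and the siDNMT1_OB library (DNMT1 siRNA) came from cells then induced for osteoblast (OB) differentiation for 3 days in medium with ascorbic acid (50 µM), glycerophosphate (10 mM), dexamethasone, a synthetic glucocorticoid, and penicillin-streptomycin. All libraries thus come from 1 established line, every group had been transfected, and no untransfected cells and no interferon-treated cells were analysed here.

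Each group held 1 library, so no difference below has a replicate check. Total counts lay between 22296046 in OB and 27367792 in control. A count of 3, used as the floor of detection, equalled 0.111 to 0.133 CPM. Dnmt1 itself, the target of the siRNA, was counted 7195, 3375, 1931 and 2492 times (265, 132, 85.4 and 93.1 CPM) in control, siDNMT1, OB and the library labelled siDNMT1_OB. It was lower in siDNMT1 than in control (log2 fold change −1.01, 95% counting interval −1.07 to −0.95). Compared with OB, the library labelled siDNMT1_OB was not lower (0.13, interval 0.04 to 0.21), so every direction drawn from that library below is a difference between the libraries as labelled. Of 13 mesenchymal markers 12 were tested, led by Col1a2 and Col1a1, and their summed level was 28290 to 34690 CPM. Of 10 osteoblast markers 4 were tested (Spp1, Runx2, Phex and Dmp1), and the list summed to 636, 309, 291 and 367 CPM in the same order. Of these 4, 2 were called lower in siDNMT1 than in control, by the rule given below, against 1.31% of all tested genes. In OB against control 1 was called higher and 2 lower, against 10.6% and 7.1% of all tested genes. Between the induced libraries 1 was called higher and 1 lower, against 2.34% and 1.35%. Spp1, the most abundant, had 548, 206, 187 and 271 CPM, and Runx2 had 75.5, 96.0, 72.7 and 87.0. Alpl had at most 2 counts, Sp7 at most 8, and Sost none in any library.

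Below, the untreated pair is siDNMT1 over control and the OB pair is the library labelled siDNMT1_OB over OB. Those comparisons share no library. The OB change with control siRNA is OB over control, and the OB change with DNMT1 siRNA is the library labelled siDNMT1_OB over siDNMT1. Each of these shares a library with both siRNA pairs. Calls (higher or lower) require a log2 fold change of at least 1 in size and, from an exact binomial test on the read counts, a p under 0.05 after adjustment over all 13233 genes. The test is between libraries and says nothing of the spread within a condition. Values in a series of 4 are given in the order control, siDNMT1, OB and the library labelled siDNMT1_OB. In bulk RNA, more cells that express a gene and more RNA per cell cannot be told apart.

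The ISRE is the element that ISGF3 binds, so it was looked for first. RefSeq promoter windows (build GRCm38.p6, 250 bases before to 50 after the transcript start) were matched by symbol for 37 of the 48 members. Rtp4, Parp10, Ly6e, Mx1, Ifi27, Parp14, Usp18, Zbp1, Parp9, Ifi27l2a and Mx2 had none. A gene with several windows was counted as holding a motif if any of its windows did. The ISRE core GAAANNGAA was found on either strand in 18 of the 37 (48.6%), against 9.76% of the 27025 genes with a window. With a further A after it, the core was found in 13 (35.1%), against 3.99% of all genes. The GAS motif TTCNNNGAA, also searched on both strands, was found in 9 (24.3%), against 9.55%. A match is a description of the letters and not a measured site.

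The 250 bases before the start of Isg15, Bst2, Ddx60 and Ifit1 are shown because these are among the members with the largest differences below and their core matches lie before the start. Coordinates are on GRCm38.p6, sequences run 5′ to 3′ in the direction of the gene, and capitals mark the ISRE core on either strand.

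Isg15 (chr4:156200819-156201068, minus strand): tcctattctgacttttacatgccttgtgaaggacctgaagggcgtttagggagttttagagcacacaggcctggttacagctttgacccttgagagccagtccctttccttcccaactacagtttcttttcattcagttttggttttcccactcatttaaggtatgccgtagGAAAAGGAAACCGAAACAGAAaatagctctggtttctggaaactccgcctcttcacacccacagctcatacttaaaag
Bst2 (chr8:71537473-71537722, minus strand): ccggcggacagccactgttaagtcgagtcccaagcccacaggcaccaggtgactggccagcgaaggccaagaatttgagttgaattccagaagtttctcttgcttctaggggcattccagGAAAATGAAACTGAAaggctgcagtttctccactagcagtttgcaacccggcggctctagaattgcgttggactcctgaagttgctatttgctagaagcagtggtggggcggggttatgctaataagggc
Ddx60 (chr8:61927837-61928086, plus strand): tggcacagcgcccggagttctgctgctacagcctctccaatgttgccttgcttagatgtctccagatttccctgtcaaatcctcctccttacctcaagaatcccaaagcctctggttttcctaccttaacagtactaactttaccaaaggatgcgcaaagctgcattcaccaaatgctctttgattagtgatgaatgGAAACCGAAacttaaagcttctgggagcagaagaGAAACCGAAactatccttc
Ifit1 (chr19:34640639-34640888, plus strand): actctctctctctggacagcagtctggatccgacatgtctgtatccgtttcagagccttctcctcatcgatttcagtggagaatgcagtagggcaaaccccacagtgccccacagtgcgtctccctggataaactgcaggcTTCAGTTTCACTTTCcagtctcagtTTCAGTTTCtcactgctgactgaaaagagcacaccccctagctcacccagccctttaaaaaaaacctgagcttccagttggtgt

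Counted from the transcript start, the core matches of Isg15 began at −78, −72 and −66 and overlapped into 1 run. Bst2 had a pair of overlapping matches at −130 and −124, and Ddx60 had separate ones at −53 and −19. In Ifit1 all 3 matches, at −109, −103 and −84, lay on the opposite strand. Ifi44 had a single match that began at −3 and ran across the start. The median change (log2) of the 15 tested members with a core match was 0.71 for the untreated pair and 1.94 for OB over control. The 16 tested members with a window but no match had medians of 0.57 and 1.05. Members called higher numbered 7 of the 15 with a match and 3 of the 16 without in the untreated pair. They numbered 3 and 0 in the OB pair, 10 and 8 in OB over control, and 7 and 4 in the OB change with DNMT1 siRNA. Of all tested genes, 1.84%, 2.34%, 10.6% and 6.82% were called higher in these 4 comparisons. For the GAS motif the medians lay the other way, at 0.31 for the untreated pair and 0.76 for OB over control in the 9 members with a match, and 0.76 and 1.80 in the 22 tested members without. Called higher in the untreated pair were 1 of the 9 and 9 of the 22. These medians and counts are a description, with no test.

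Taken over all 48 members, the summed level was 953, 1392, 2084 and 2330 CPM, so that the later 3 libraries stood at 1.46, 2.19 and 2.44 times the control level. Ifitm3, Shisa5 and Lgals3bp had the highest CPM, and without them the ratios were 1.49, 2.15 and 2.38. Per kilobase of exon, the mean level was highest for Ifitm3 (262 CPM per kb), Ifitm2 (118), Ifi27 (86.9) and Bst2 (76.3). It was lowest among the tested members for Ddx60 (0.498 CPM per kb) and Sp100 (0.279). Of the 40 tested members 8 (Ifi44, Ddx60, Mx2, Usp18, Trim30a, Ifi27l2a, Ifitm1 and Sp100) had under 1 CPM in control, so they passed the filter through other libraries.

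**Figure D1:**
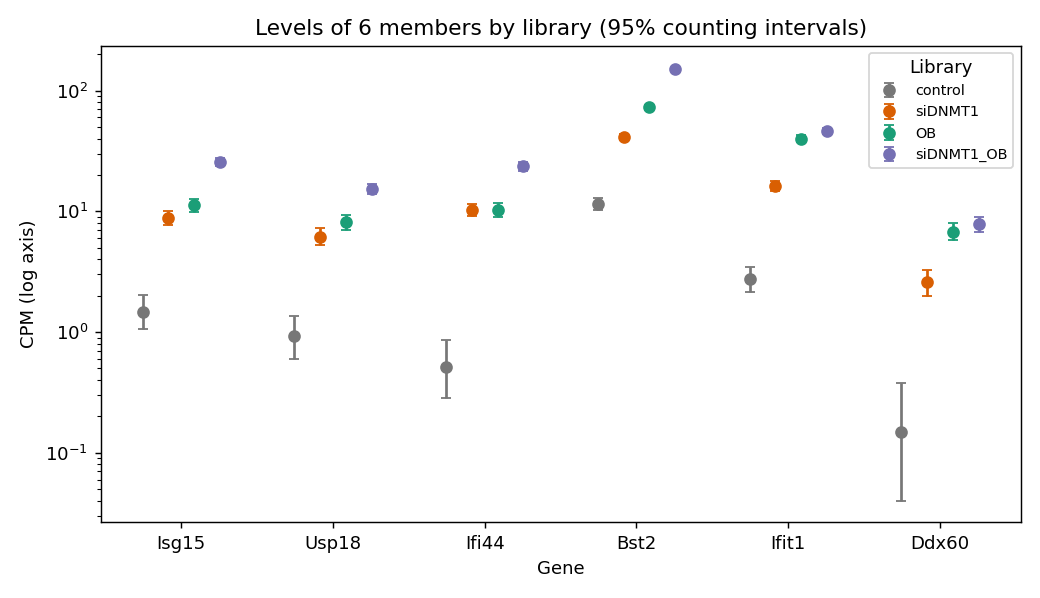
Level of Isg15, Usp18, Ifi44, Bst2, Ifit1 and Ddx60 in each library in CPM on a log axis, where bars are 95% counting intervals of 1 library. Control is the lowest library for all of them and the library labelled siDNMT1_OB the highest, with Ifi44 at 10.3 CPM in siDNMT1 and 10.2 in OB.

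The most frequent order of the levels was control, siDNMT1, OB, then the library labelled siDNMT1_OB, which 28 of the 40 tested members followed, against 8.34% of all tested genes. Control was the lowest library for 38 of the 40 (30.5% of all tested genes), and the library labelled siDNMT1_OB the highest for 29 (18.9%). The next most frequent order, with OB above the library labelled siDNMT1_OB and the others as before, was that of 9 members (Znfx1, Uba7, Herc6, Shisa5, Ifitm1, Samhd1, Ifi27l2a, Parp10 and Trim30a). Of the 120 steps between neighbouring libraries in these orders, 39 lay within overlapping counting intervals. Only Ifi44, Ifitm2 and Ifit2 had other orders, and they are described with their groups.

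In untreated cells with DNMT1 siRNA, 14 of the 40 tested members were called higher than with control siRNA and 0 lower, against 1.84% and 1.31% of all tested genes. The 14 were Ifi44, Ddx60, Mx2, Usp18, Ifit1, Isg15, Bst2, Trim30a, Ifit3, Xaf1, Phf11d, Rtp4, Parp14 and Lgals3bp, with log2 fold changes from 4.12 (Ifi44) down to 1.13 (Lgals3bp). Among them, Ifi44, Ddx60, Mx2, Usp18 and Trim30a had under 1 CPM in control and passed the expression filter through other libraries. Without that filter 14 members were called higher, among 376 genes in all. Parp9, at 0.99, lay just under the threshold. The median over the 40 was 0.69, against −0.001 over all tested genes, and the fold change was positive in 39, with Ifitm2 (−0.28) the exception. The counting interval lay above 0 in 34, below it in 1 and across it in 5. Counting error leaves out the spread between dishes. When a coefficient of variation of 0.2 between dishes was assumed in edgeR's exact test, 7 members were called, and none when 0.4 was assumed. Of all tested genes, 35 and 0 were called higher at these settings.

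Between the libraries of cells induced for 3 days, as labelled, the differences were smaller. The library labelled siDNMT1_OB was called higher than OB for 3 members, Ifi44 (1.20), Isg15 (1.18) and Bst2 (1.04), and lower for 0, against 2.34% and 1.35% of all tested genes. Usp18 (0.91) was next. The median over the 40 was 0.21, against 0.01 over all, with 30 positive and 10 negative values, and the counting interval lay above 0 in 21, below it in 5 and across it in 14. None of the 3 calls was made with an assumed coefficient of variation of 0.2, at which 35 of all tested genes were called higher.

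The signed log2 fold change with DNMT1 siRNA was lower for the OB pair than for the untreated pair in 39 of the 40 tested members, Ifit2 being the exception. It was lower by at least 1 in 11 members, against 2.95% of all tested genes, and higher by at least 1 in 0, against 3.27%. The 11 were Ddx60, Ifi44, Mx2, Ifit1, Usp18, Trim30a, Isg15, Ifi27l2a, Parp14, Ifit3 and Xaf1. Among them, Ddx60, Ifi44, Mx2, Usp18, Trim30a and Ifi27l2a had under 1 CPM in control and passed the expression filter through other libraries. The median of OB pair minus untreated pair was −0.62 over the 40 and 0.004 over all tested genes. As the latter median is above 0, fewer of all tested genes had a negative difference than a positive one. With 1 library per group the difference between the pairs has no test. It equals the difference between the OB changes with DNMT1 siRNA and with control siRNA.

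**Figure D2:**
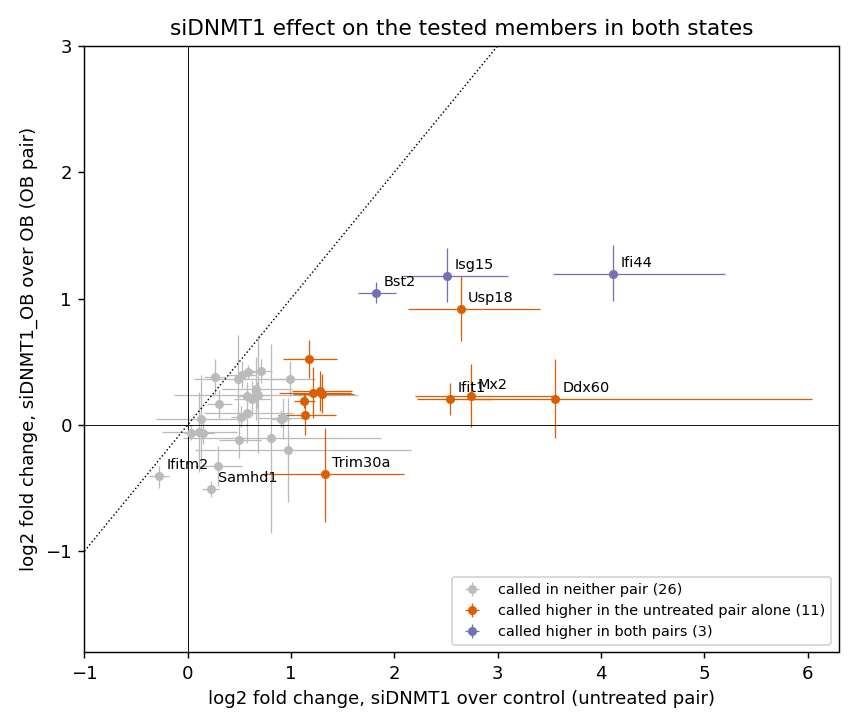
Log2 fold change of each tested member with DNMT1 siRNA for the untreated pair (horizontal axis) against the OB pair (vertical axis), with 95% counting intervals as bars and equal change as the dotted line. All points but Ifit2 lie under the line, and the 3 members called in both pairs are Ifi44, Isg15 and Bst2.

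OB induction itself went with higher levels of most members. With control siRNA, 26 of the 40 were called higher in OB than in control and 0 lower, against 10.6% and 7.1% of all tested genes. Their log2 fold changes ran from 4.92 for Ddx60 to 1.12 for Ifitm1, and the median over the 40 was 1.42, against 0.01 over all. The 14 not called lay between −0.59 (Ifit2) and 0.98 (Ifi35). All 8 members under 1 CPM in control, which passed the expression filter through other libraries, were among the 26. Without that filter 30 members were called higher, among 2175 genes in all. All 14 members called in the untreated pair were among the 26, and both comparisons use the control library, so that overlap is not a separate result. With an assumed coefficient of variation of 0.2, 24 members were called higher, and with 0.4, 4 were. Of all tested genes, 1007 and 146 were called higher at these settings.

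In the OB change with DNMT1 siRNA, as labelled, 17 members were called higher and 0 lower, against 6.82% and 2.7% of all tested genes. The largest log2 fold changes were those of Bst2 (1.87) and Ifi27l2a (1.86), and Mx2 (1.04) was the smallest of the 17. The median over the 40 was 0.77, against 0.001 over all. With the assumed variation of 0.2, 10 members were called, and with 0.4 none. Of all tested genes, 500 and 65 were called higher at these settings.

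Other gene groups moved with the induction. All 12 genes of a proliferation list, led by Top2a and Mki67, were called lower in OB than in control, against 7.1% of all tested genes. Their summed level was 2795, 2463, 601 and 1161 CPM. In the OB pair all 12 had positive values, with a median of 0.99, and 5 were called higher, against 2.34%. In the OB change with DNMT1 siRNA 6 were called lower, against 2.7%, and in the untreated pair 0 were called. Of 7 glucocorticoid response genes 5 were called higher in OB than in control, against 10.6% of all tested genes. The list's summed level was 305, 254, 1383 and 1440 CPM. Tsc22d3, a glucocorticoid-induced leucine zipper protein, stood at 27.4, 29.0, 441 and 449.6 CPM, and Sgk1, a glucocorticoid-induced kinase, at 155, 117, 217 and 389 CPM. The part of proliferation and of dexamethasone in the members' values was not tested.

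**Figure D3:**
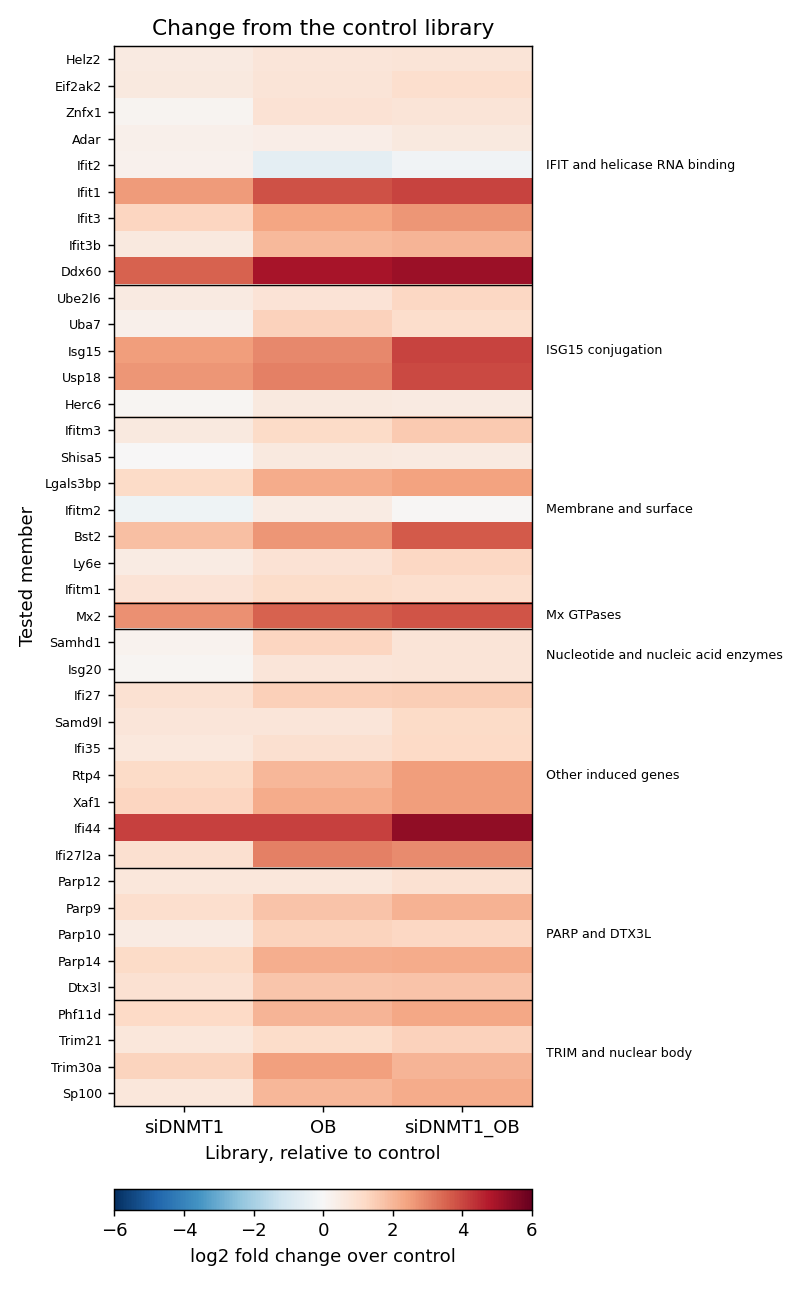
Log2 fold change over control of the 40 tested members (vertical axis, grouped by role) in siDNMT1, OB and the library labelled siDNMT1_OB, on a color scale from −6 to 6. Ddx60, Ifi44, Ifit1, Isg15, Usp18, Mx2 and Bst2 are among the darkest in each column, as is Ifi27l2a in OB. Ifit2 is below control in OB and in the library labelled siDNMT1_OB, and Ifitm2 is below control in siDNMT1.

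ISG15 is a ubiquitin-like protein that is joined to other proteins by the E1 enzyme UBA7, the E2 enzyme UBE2L6 and, in mice, the ligase HERC6, and is removed by USP18. All 5 members of this group were tested. Isg15 (ENSMUSG00000035692, chromosome 4, minus strand) had 40, 225, 255 and 686 counts, or 1.48, 8.78, 11.3 and 25.6 CPM. Control was the lowest and the library labelled siDNMT1_OB the highest, with no overlap of their counting intervals. The untreated pair gave a log2 fold change of 2.51 (interval 2.08 to 3.10), and the OB pair 1.18 (0.98 to 1.40). Usp18, the ISG15 protease, ran alongside at 25, 158, 184 and 412 counts, with log2 fold changes of 2.64 and 0.91 in the siRNA pairs and 3.04 in OB over control.

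The enzymes that attach ISG15 were present in every library and differed less. Ube2l6 had 796, 1082, 1180 and 1839 counts, or 29.4, 42.2, 52.2 and 68.7 CPM, and was called in none of the 4 comparisons. Uba7 had 304, 353, 668 and 632 counts, or 11.2, 13.8, 29.5 and 23.6 CPM, and was higher in OB than in control (1.39, interval 1.20 to 1.60). With DNMT1 siRNA the untreated pair gave 0.30 (0.07 to 0.52) and the OB pair −0.32 (−0.48 to −0.16). Herc6 was called nowhere, at 4.68 to 7.12 CPM, and shares 13.7% of its exon bases with the overlapping gene Gm45193.

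The IFIT proteins bind viral RNA, and the helicase-like proteins of this group act in RNA sensing or decay. Of 10 members 9 were tested, 3 were called higher in the untreated pair, 0 in the OB pair and 4 in OB over control. Of all tested genes, 1.84%, 2.34% and 10.6% were called higher there. The 3 highest in CPM were Helz2, a nuclear receptor coactivator with helicase domains, Eif2ak2, the RNA-activated kinase PKR, and Znfx1, an RNA-binding helicase. Helz2 had 57.7, 82.5, 94.3 and 98.5 CPM, and Eif2ak2 had 53.0, 78.9, 90.0 and 106 CPM (1438, 2021, 2035 and 2824 counts). Znfx1 had 45.8, 50.7, 82.4 and 79.0 CPM. None of these was called in any comparison, the largest log2 fold change among them being 0.85, for Znfx1 in OB over control.

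Ifit1 (chromosome 19, plus strand, cap-binding) was far lower in control than elsewhere, with 74, 417, 903 and 1232 counts or 2.73, 16.3, 39.9 and 46.0 CPM. Log2 fold changes were 2.54 (interval 2.22 to 2.95) for the untreated pair, 0.21 (0.08 to 0.33) for the OB pair and 3.83 (3.53 to 4.23) for OB over control. Ddx60, a helicase linked to RNA sensing, was close to the floor in control, with 4, 66, 153 and 209 counts. This gave 0.148, 2.58, 6.77 and 7.81 CPM, and log2 fold changes of 3.56 (2.70 to 6.04) for the untreated pair and 4.92 (4.13 to 7.41) for OB over control, with wide intervals from the low control count. In the OB pair its change was 0.21 (−0.10 to 0.52). Both genes thus differed between the untreated libraries and hardly between the induced ones.

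Ifit3 rose in the untreated pair (1.30) and in OB over control (2.38), and Ifit3b was called in OB over control (1.94). They are near-identical copies, so the split of reads between them is uncertain. Ifit2, which lies beside them on chromosome 19, had another order, with 1283, 1454, 710 and 1095 counts or 47.3, 56.8, 31.4 and 40.9 CPM. Its log2 fold change in OB over control was −0.59 (interval −0.73 to −0.46), not past the threshold, and it was the only tested member with a negative value there. With a threshold of 1.5-fold it was called lower. Adar, the RNA-editing deaminase, had 38.1 to 57.3 CPM, was called nowhere, and shares 16.8% of its exon bases with Chrnb2 on the opposite strand.

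Zbp1, a sensor of Z-form nucleic acid, was not tested because of its low counts of 0, 6, 21 and 38. By the lower limit of the counting interval, it was at least 6.25-fold higher in OB than in control. Between siDNMT1 and the library labelled siDNMT1_OB it differed 6.06-fold (interval 2.54 to 17.6).

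Among the nucleotide and nucleic acid enzymes, Samhd1, a phosphohydrolase that lowers the supply of deoxynucleotides, was abundant throughout. It had 2282, 2512, 4598 and 3830 counts, or 84.1, 98.1, 203 and 143 CPM. The OB library was highest, and all 4 intervals were apart. OB over control was called, at 1.27 (1.20 to 1.35). The untreated pair stood at 0.22 (0.14 to 0.30) and the OB pair at −0.51 (−0.57 to −0.44). Isg20, an exonuclease, had 3.36, 3.67, 5.57 and 5.76 CPM and was called nowhere.

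The other members of that group were at or near the floor. Rsad2, which encodes the antiviral enzyme viperin, was counted 0, 2, 7 and 0 times. By the limits of the counting intervals, OB stood at least 1.73-fold above control. The library labelled siDNMT1_OB had at most 0.586 of the OB level. Cmpk2, its neighbour in the genome and a nucleotide kinase, had 0, 3, 16 and 6 counts. By the lower limit of the counting interval, its level was at least 4.625-fold higher in OB than in control. Trex1, a DNA exonuclease, had no count in any library. All of its exon bases (100%) are shared with Atrip on the same strand, so this 0 does not show that its mRNA was absent.

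The Mx GTPases form rings around viral nucleocapsids. Mx2 had 22, 150, 234 and 325 counts, or 0.811, 5.86, 10.3 and 12.1 CPM, and was called higher in the untreated pair (2.74, interval 2.20 to 3.57) and in OB over control (3.55, 3.04 to 4.38). In the OB pair its change was 0.23 (−0.02 to 0.48). Mx1 was low and followed another order, with 2, 4, 37 and 7 counts. OB stood above the other libraries. Control was under the floor of 3 counts, and by the lower limit of the counting interval OB stood at least 5.72-fold above it. The library labelled siDNMT1_OB had 0.160 of the OB level (interval 0.0602 to 0.363). Without the expression filter, Mx1 and Rsad2 were called lower in the OB pair, and they were the only members called lower in it.

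Membrane and surface proteins held the most abundant members. All 7 were tested, 2 were called higher in the untreated pair, 1 in the OB pair and 4 in OB over control. Of all tested genes, 1.84%, 2.34% and 10.6% were called higher there. Ifitm3, which blocks the fusion of viruses with endosomes, had 2523, 3571, 4631 and 7323 counts, or 93.0, 139, 205 and 274 CPM. It was called in OB over control (1.14, interval 1.07 to 1.21) and was not called with siRNA, at 0.58 (untreated pair) and 0.42 (OB pair). Shisa5, a membrane protein linked to apoptosis, had 128, 131, 195 and 186 CPM and was called nowhere. Lgals3bp, a secreted galectin ligand, had 1139, 2357, 4512 and 6072 counts, or 42.0, 92.0, 199.5 and 227 CPM, and was called in the untreated pair (1.13, 1.03 to 1.24) and in OB over control (2.25, 2.15 to 2.34).

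Bst2 encodes tetherin, which holds budding virus particles at the cell surface, and was called higher in all 4 comparisons, as were Isg15 and Ifi44. It had 314, 1054, 1646 and 4019 counts, or 11.6, 41.1, 72.8 and 150.2 CPM. Every library's interval was apart from the others. Log2 fold changes with DNMT1 siRNA were 1.82 (interval 1.65 to 2.02) untreated and 1.04 (0.96 to 1.13) induced, and those with induction were 2.64 (2.48 to 2.83) under control siRNA and 1.87 (1.77 to 1.97) under DNMT1 siRNA. Per kilobase its level went from 12.8 CPM per kb in control to 166 in the library labelled siDNMT1_OB.

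The paralogs of Ifitm3 behaved otherwise. Ifitm2 was the only tested member with a negative value in the untreated pair, with 1967, 1532, 2283 and 2035 counts or 72.5, 59.8, 101 and 76.1 CPM. The value there was −0.28 (interval −0.38 to −0.18), that of the OB pair was −0.41 (−0.50 to −0.32), and neither was called. Ifitm2 shares 40.9% of its exon bases with Gm45717, so its counts are uncertain. Ifitm1 had 16, 28, 31 and 34 counts and passed the threshold in OB over control alone (1.12). Ly6e, a surface protein that restricts viral entry, had 2.84 to 6.84 CPM and was called nowhere.

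PARP proteins add ADP-ribose to their targets, and DTX3L is the ubiquitin ligase that pairs with PARP9. All 5 were tested, and 4 were called higher in OB over control, 1 in the untreated pair (Parp14, 1.14) and 0 in the OB pair. Of all tested genes, 10.6%, 1.84% and 2.34% were called higher there. Parp12 had 37.9, 60.3, 61.3 and 72.2 CPM and was called nowhere. Parp9 had 245, 463, 675 and 1030 counts, or 9.03, 18.1, 29.9 and 38.5 CPM, with 1.72 (interval 1.51 to 1.94) for OB over control and 0.99 (0.77 to 1.23) for the untreated pair. Parp10 had 12.9, 18.3, 32.9 and 30.2 CPM and was called in OB over control (1.34). Dtx3l stood at 0.92 in the untreated pair and 1.66 in OB over control. In the OB pair Dtx3l was at 0.05 (−0.11 to 0.22) and Parp9 at 0.37 (0.23 to 0.51), with intervals apart. Of the pair, only Parp9 was called in the OB change with DNMT1 siRNA (1.09, against 0.79 for Dtx3l). The pair lie head to head on chromosome 16 and share 9.4% of the exon bases of Parp9, so part of their counts may be common to both.

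TRIM proteins are ubiquitin ligases, and SP100 and PHF11 act in the nucleus. Of 5 members 4 were tested, and all 4 were called higher in OB over control, against 10.6% of all tested genes. Phf11d had 101, 224, 355 and 502 counts, or 3.72, 8.74, 15.7 and 18.8 CPM, and was also called in the untreated pair (1.21). Trim21, a receptor for antibody-coated virus, had 4.54, 7.22, 9.95 and 12.1 CPM and was called in OB over control (1.12). Sp100 was called in both OB comparisons, at 1.99 and 1.54. Trim30a, a regulator of inflammatory signalling, had 27, 67, 130 and 117 counts, or 0.995, 2.62, 5.75 and 4.37 CPM. It rose in the untreated pair (1.33, interval 0.73 to 2.10) and stood at −0.39 (−0.77 to −0.02) in the OB pair. Trim25, the ligase that acts on RIG-I, had 1 count in control and 0 elsewhere, under the floor.

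Of the 9 other induced genes 7 were tested. Ifi27, of the ISG12 family, was the highest in CPM, with 1646, 2910, 3732 and 4567 counts or 60.7, 114, 165 and 171 CPM. It was called in OB over control (1.44, interval 1.36 to 1.53) and not in the untreated pair (0.90, 0.82 to 0.99). Samd9l, a restriction factor, had 40.4, 65.9, 67.0 and 89.9 CPM, and Ifi35, a partner of NMI, had 16.2, 24.9, 32.0 and 37.0 CPM. Both were called nowhere, and Ifi35 shares 16.8% of its exon bases with Gm11626 on the opposite strand. Ifi44, a GTP-binding protein, had 14, 263, 231 and 629 counts, or 0.516, 10.3, 10.2 and 23.5 CPM, so siDNMT1 and OB did not differ beyond counting error.

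Ifi44 had the largest increase of any tested gene in the untreated pair, with a log2 fold change of 4.12 (interval 3.54 to 5.21). It also rose in the OB pair (1.20, 0.98 to 1.43), in OB over control (4.11, 3.53 to 5.20) and in the OB change with DNMT1 siRNA (1.19, 0.99 to 1.41). Rtp4, a receptor-transporting chaperone, and Xaf1, which counters the apoptosis inhibitor XIAP, were called in the untreated pair and in both OB comparisons, with Rtp4 at 1.17 and Xaf1 at 1.28 in the untreated pair. Rtp4 shares 13.9% of its exon bases with Gm45338. Ifi27l2a, a relative of Ifi27, had 13, 26, 101 and 104 counts and was called in both OB comparisons alone, at 3.03 and 1.86. Epsti1 and Ifi44l never exceeded 1 count. In all, 8 members were not tested, and 4 of them (Trex1, Trim25, Ifi44l and Epsti1) were at or under 3 counts in every library.

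The interferon ligands themselves were hardly counted. Of 20 interferon genes, 16, among them Ifng, Ifnl2, Ifnl3 and most Ifna genes, had no count in any library, and their summed counts were 1, 1, 7 and 3. Ifnb1 had 1, 0, 2 and 0 counts. Ifne, at 0, 0, 4 and 1 counts, was the only one above the floor of 3 in any library. No ligand could be tested at this depth.

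Receptors and signalling genes of the pathway were present, with 16 of 17 tested and Irf8 at 0. Their median was 0.06 in the untreated pair, −0.03 in the OB pair and 0.06 in OB over control, over genes that lay on both sides of 0 (from −0.45 up to 1.66 between the untreated libraries, and from −1.02 up to 2.57 for OB over control). Jak1 had 188, 178, 128 and 149 CPM and was called nowhere. Irf9, a subunit of ISGF3 (491, 1418, 1518 and 2335 counts), and Irf7, which amplifies the response (61, 186, 310 and 416 counts), were called higher in the untreated pair, at 1.61 and 1.66. In OB over control both of these and Stat2 were called higher, with Stat2 at 60.5, 105, 154 and 196 CPM, and Socs1, a feedback inhibitor of JAK kinases, was called lower (−1.02). None of the list was called in the OB pair, where 2.34% of all tested genes were called higher and 1.35% lower. For siDNMT1 over control these shares were 1.84% and 1.31%, and for OB over control 10.6% and 7.1%.

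Of 11 tested nucleic acid sensors and adaptors, 1 was called higher in the untreated pair (Dhx58, which encodes LGP2) and 4 in OB over control (Ddx58, Ifih1, Dhx58 and Tlr3). Of all tested genes, 1.84% and 10.6% were called higher in these comparisons. Ddx58, which encodes RIG-I, had 49.0, 65.9, 119 and 111 CPM, and Tbk1, the kinase that passes the signal on, had 92.3, 85.1, 94.7 and 87.2 CPM with no call. Mb21d1, which encodes the DNA sensor cGAS, had 411, 289, 110 and 233 counts and was called lower in OB over control (−1.62), as were 7.1% of all tested genes.

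The OAS family senses double-stranded RNA, and those of its members that are active enzymes make oligoadenylates in response. Of 12 genes 5 were tested, and 4 were called higher in the untreated pair, 0 in the OB pair and 5 in each OB comparison. Oasl2 had 18, 122, 288 and 547 counts, and Oas1b had 32, 94, 160 and 316. Oas1c was the exception in the untreated pair, at −0.71 (interval −1.43 to −0.08), and was not called there. The immunity-related and guanylate-binding GTPases gave 8 of 14 called higher in the untreated pair, 1 in the OB pair (Tgtp1) and 11 in OB over control, with Irgm1 highest in CPM at 38.6, 85.7, 59.1 and 98.8. For both lists, the shares of all tested genes called higher were 1.84% (untreated pair), 2.34% (OB pair), 10.6% (OB over control) and 6.82% (OB change with DNMT1 siRNA). Gvin1 had 8.63, 14.3, 21.1 and 36.4 CPM, with 0.72 in the untreated pair, 0.78 for the OB pair and a call in both OB comparisons. The siRNA medians for these lists were 1.77 and 0.68 (OAS enzymes) and 1.30 and 0.13 (GTPases), the untreated pair being given first. Several genes of both lists have near-identical copies, so single counts are uncertain. Oas1a, Oas2 and Oasl2 had under 1 CPM in control (0.184, 0.0369 and 0.664) and passed the expression filter through other libraries. Among the GTPases the same held for Iigp1 (0.221 CPM in control) and Gm4951 (0.111).

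Of 17 tested genes of MHC class I presentation, 2 were called higher in the untreated pair (H2-Q4 and H2-T23), 2 in the OB pair (H2-K1 and H2-Q4) and 6 in OB over control, against 1.84%, 2.34% and 10.6% of all tested genes. The list's medians were 0.25, 0.04 and 0.71. B2m, the light chain of MHC class I, had 299.7, 356, 467 and 564 CPM. Psme2, a proteasome activator subunit, had 86.2, 84.4, 104 and 101 CPM. Of 10 tested NF-kB target genes, 0 were called higher and 1 lower (Ccl2) in the untreated pair, 0 higher and 1 lower (Cxcl5) in the OB pair, and 1 higher (Nfkbia) and 3 lower (Ccl2, Ccl7 and Ptgs2) in OB over control. Of all tested genes, 1.84%, 2.34% and 10.6% were called higher, and 1.31%, 1.35% and 7.1% lower. The list's medians in these comparisons were −0.24, 0.20 and −0.58, against 0.00, 0.01 and 0.01 over all tested genes. Vcam1, at 68.3 to 84.2 CPM, was not called.

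**Figure D4:**
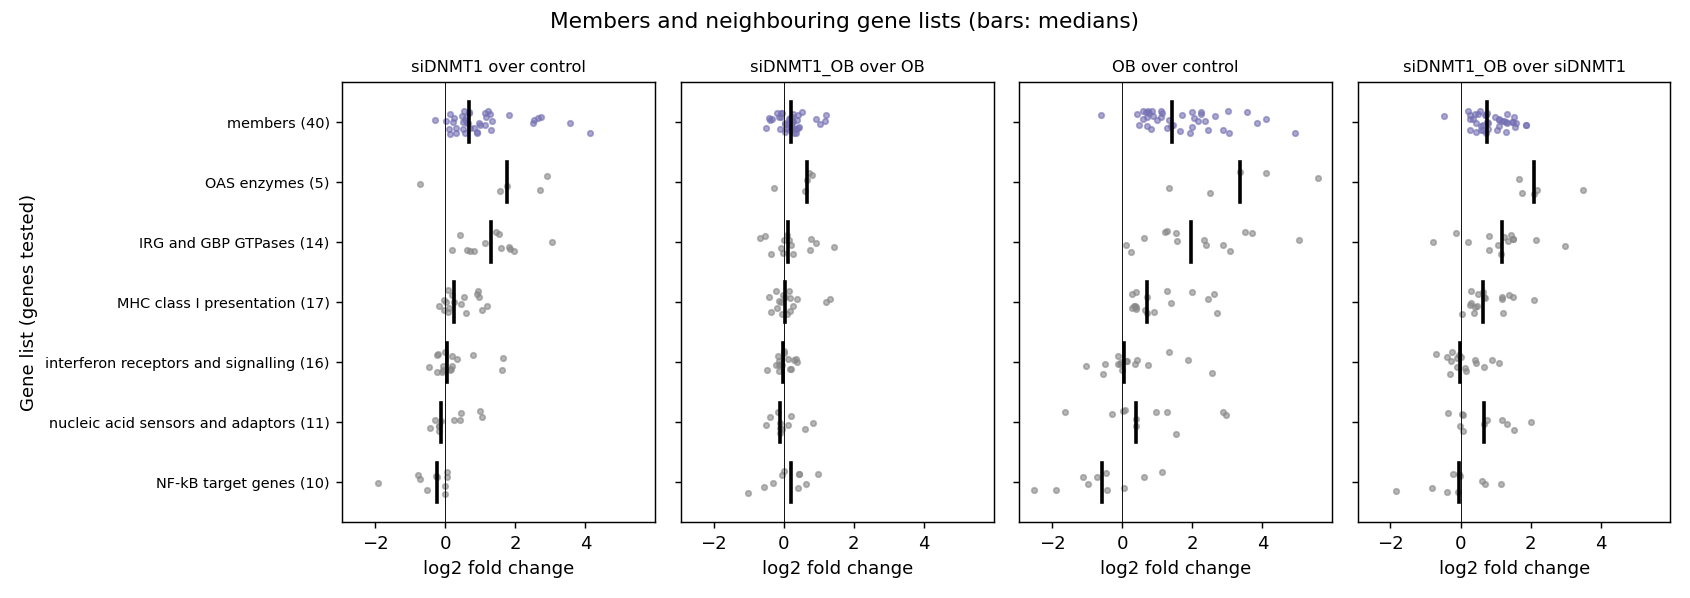
Log2 fold change of each tested gene (points) and the list median (bars) for the members and 6 neighbouring gene lists in the 4 comparisons, with Gm4951, at 3 counts in control and in siDNMT1, not drawn in the first panel. OAS genes and the GTPases lie to the right of 0 in the untreated pair, except Oas1c (−0.71), and in OB over control, while signalling genes and NF-kB targets center near or below 0 in the untreated pair.

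Markers of immune cells, which express many of these genes, were low. Of 17 such markers 2 were tested (Cd14 and Cd68), 11 were at or under the floor in every library, and 7, among them Adgre1, Cd3g, Ncr1, Siglech, Laptm5 and Tyrobp, had no count. Their summed level was 12.98 CPM in control and 11.1 to 12.4 CPM elsewhere. Neither tested marker was called in any comparison. Cd14 had 10.2, 7.38, 7.47 and 7.92 CPM, highest in control, and Cd68 had 1.73, 2.38, 2.61 and 2.32 CPM, lowest in control. None of 7 epithelial and endothelial markers was tested, and Epcam and Krt18 had no count.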

How the data were processed

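The authors deposited unnormalized counts of reads per gene (whole numbers) for 4 poly(A) RNA libraries. Per the submitters' processing notes, reads were trimmed with Trimmomatic, aligned with HISAT2 to mm10 and counted with featureCounts. Versions, use of strand and treatment of reads with several positions are not given in the sources used here, so counts of overlapping or near-identical genes may mix. Every count column was assigned to a library by its name.

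From the deposited counts, genes were kept at a mean of 1 CPM or more (13233 of 54532, holding at least 99.7% of the counts), and TMM factors (0.991 to 1.01) were computed in edgeR 4.0.16 (R 4.3.3). Log2 fold changes used a prior count of 2. A call needed a log2 fold change of at least 1 in size, the threshold of the study, and a Benjamini-Hochberg adjusted p under 0.05 in a two-sided exact binomial test on the read counts (Python 3.11.15, scipy 1.17.1) over all tested genes. Intervals are exact 95% counting intervals. Without molecular identifiers, these intervals and the floor of 3 counts cover counting error only.

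The members and the gene lists were chosen with earlier results of these data known. Some genes are not reported here and were left out of the signalling and OAS lists. In each role group the 3 tested members highest in mean CPM were named with their value in every library, as was every member called in the OB pair; of each comparison list the 2 tested genes highest in mean CPM were named. Other genes were named after their values were seen, among them Usp18, Ifit1, Ifit2, Ifit3, Ddx60, Zbp1, Rsad2, Cmpk2, Mx1, Irf9, Irf7, Socs1 and Mb21d1. Alternatives were other scalings (total counts, DESeq2 1.42.0 size factors, upper quartile), filters, prior counts, fold thresholds, assumed variation in edgeR's exact test, and an additive edgeR quasi-likelihood fit. One alternative, which left out members that share 10% or more of their exon bases, was chosen after seeing the data.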

Additional observations from a re-analysis of the deposited data

Results flagged for a closer look

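In 3 members the siDNMT1 difference had opposite signs in the untreated pair and the OB pair, with both counting intervals off 0. The log2 fold change in the OB pair minus that in the untreated pair was −0.62 for Uba7, −0.73 for Samhd1 and −1.72 for Trim30a. In each of them siDNMT1 was above control, and the library labelled siDNMT1_OB was below OB. With 1 library per group, this difference between the pairs was not tested, and the library labelled siDNMT1_OB had no less Dnmt1 than OB.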

How the results depend on the processing

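Under the alternatives 12 of the recomputed values moved, and 114 did not, by a tolerance of 1.5 times for a count and of a typical member's counting interval on either side for a median. Members called higher in the untreated pair went from 14 to 7 with an assumed coefficient of variation of 0.2 in edgeR's exact test, and to 0 with 0.4. The counts over all tested genes were 244, 35 and 0. The additive edgeR quasi-likelihood fit (siRNA and OB terms, 1 residual degree of freedom, coefficient of variation 0.138) gave 0 members for its siRNA term, which is another contrast, averaged over both states. No gene passed an adjusted p of 0.05 for that term (smallest 0.111), and 1148 genes, 16 of them members (15 higher), had an unadjusted p under it. For its OB term 2786 genes passed that adjusted p. With the fold threshold as well, 952 genes were called higher, 19 of them members. Members called higher in the OB pair went from 3 to 0 with 0.2 and to 0 with 0.4 (310, 35 and 0 over all tested genes). Members called higher in OB over control went from 26 to 24 with 0.2 and to 4 with 0.4 (1404, 1007 and 146 over all tested genes). In the OB change with DNMT1 siRNA they went from 17 to 10 with 0.2, to 0 with 0.4 and to 28 with a threshold of 1.5-fold. The counts over all tested genes there were 903, 500, 65 and 1794. The threshold of 1.5-fold also called 21 members higher in the untreated pair and 37 in OB over control, and 1 member (Ifit2) lower in OB over control. Over all tested genes it called 704 and 2475 higher, and 1985 lower in OB over control. Without the expression filter 2 members (Rsad2 and Mx1) were called lower in the OB pair, among 391 genes in all. Leaving out members that share 10% or more of their exon bases moved the median of OB over control from 1.42 to 1.66, an alternative chosen after seeing the data. Except where an alternative itself adds variation or changes the genes counted, the cause was not tested. Other scalings moved the median of all tested genes to at most 0.06. No paired analysis was possible because each group held 1 library, and no numbered replicates could be blocked. Low counts limit the 8 members that were not tested, and the spread between dishes was not measured.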
